A study of Arabidopsis thaliana with 17 samples.

Results

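The genes described here were raised by the immune hormone salicylic acid (SA) in Arabidopsis npr1 sni1 plants. When BRCA2A was mutated as well, their mean rise with SA stayed below a set limit or was absent. They were chosen from measured values, as log2(intensity + 16) on 12 Affymetrix ATH1 arrays. In npr1 sni1 the SA mean had to exceed the water mean by at least 1, with the lowest SA array above the highest water array. The SA mean minus the water mean of npr1 sni1 brca2a had to be under 0.3. Of 22746 probe sets, 325 met the first condition, 319 of these (1.40% of all) also the second, and 177 (0.778%) all conditions. The 177 are called members below. They made up 55.5% of the 319 probe sets raised in npr1 sni1. The other 142 split into 104 that were partly kept in the brca2a mutant (an SA effect of 0.3 to under 1) and 38 that were kept (at least 1). Since SA and water values of both genotypes chose the members, those values are given as a description without a test. The SA effect in a further mutant, npr1 sni1 ssn2, took no part in the choice and was tested.

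All plants were 3 weeks old, soil-grown and carried the npr1 and sni1 mutations, so no group was wild type. They received 0.5 mM SA or water for 16 hours. The genotypes were npr1 sni1 (the double), npr1 sni1 brca2a (the brca2a triple) and npr1 sni1 ssn2 (the ssn2 triple), with 3 arrays per treatment except for 2 SA arrays of the ssn2 triple. One label of the ssn2 samples, on treatment, speaks of brca2a plants, and the titles and genotype entries, which give ssn2, were followed. The double and the brca2a triple were deposited in 1 table and the ssn2 triple in another, normalized separately and without arrays of the double. Levels in the 2 tables cannot be compared, and genotype cannot be told apart from table there. The tissue label is seedling. RCA, which encodes Rubisco activase and was the 1 measured gene of 6 green tissue markers, lay between 10000 and 14800 intensity units on all 17 arrays. PYK10, the 1 measured gene of 4 root markers, lay between 457 and 961. In the ssn2 triple PYK10 fell with SA by 0.47 on the log2 scale (-0.47 ± 0.05, adjusted p = 0.00085), and its part in the results below was not tested. None of 3 flower markers, and none of NPR1, SNI1, BRCA2A and SSN2, was named by a probe set of 1 gene, so the mutations were not checked at the RNA level. In bulk tissue, fewer cells of a type and less RNA per cell cannot be told apart.

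SA accumulates after pathogen attack and reprograms transcription, largely through NPR1, which works with TGA and other transcription factors. SNI1 was found as a gene whose loss restores SA responses to npr1 plants, and it belongs to a protein complex involved in DNA damage responses. BRCA2A acts in homologous recombination. Early immune and stress genes of Arabidopsis include calmodulin-like proteins that sense calcium, WRKY and zinc finger transcription factors, and ubiquitin ligases that limit signalling.

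Of the 177 members, 71 had a probe set of 1 gene (71 loci, all found in the RefSeq annotation of TAIR10.1), 5 had several genes and 101 were not listed in the platform table, so that most members stay unnamed here. The annotation gave a symbol to 16 of the 71, and the others are named by locus tag. Transcription factors among the 16 were STZ (also ZAT10, a stress-induced zinc finger protein), WRKY53 and WRKY22 of immune signalling, and ORA47, an AP2-type factor that acts on jasmonate synthesis. OPCL1 encodes an enzyme of jasmonate synthesis. PUB23, PUB19 and RING1 encode ubiquitin ligases, and PUB23 dampens immune responses to microbial patterns. CML38 encodes a calmodulin-like calcium sensor, GRX480 a glutaredoxin that binds TGA factors, XTH18 an enzyme that remodels cell wall xyloglucan, CHI a chitinase and TET8 a membrane protein of the tetraspanin family. LTI30 (a dehydrin) and LEA4-5 encode hydrophilic proteins that accumulate in cold or drying plants. AR781 was the remaining gene with a symbol. Among the 71 members with 1 locus, AT4G27652 and AT4G27654 were the only neighbours in the gene order, and the other 106 members were not placed.

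In the double, the SA effect of the members ran from 1.0 to 3.40 with a median of 1.41. It was at least 2 in 34 members, at least 3 in 4, and under 1.5 in 102. AT5G52760 had the largest value of the named members. Its intensity was 58.0, 44.7 and 40.5 in the 3 water arrays of the double and 584, 741 and 641 in the SA arrays, a 10.6-fold difference. In the brca2a triple it was 65.4, 39.4 and 44.9 in water and 61.5, 49.5 and 65.0 after SA, so that both groups overlapped there. CML38 was at 22.3, 19.7 and 24.2 in the double in water and at 236, 254 and 312 after SA. CML38 in the brca2a triple was at 44.3, 19.7 and 47.1 in water and 25.9, 20.1 and 25.6 after SA. The SA arrays of the brca2a triple thus lay near the water arrays of the double. AT3G01830, a gene of the calmodulin-like list, went from 8.89, 7.85 and 8.12 to 141, 126 and 160 in the double. It stayed between 9.36 and 16.2 in the brca2a triple.

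Among genes of transcription and ubiquitin ligation, STZ was at 138, 102 and 132 in the double in water and 650, 602 and 611 after SA. STZ in the brca2a triple was at 103, 63.9 and 115 in water and 51.1, 63.5 and 63.1 after SA, every SA array lying below every water array. PUB23 was at 93.0, 61.1 and 107 in the double in water and 405, 394 and 423 after SA, against 77.0, 60.0 and 62.6 in the SA arrays of the brca2a triple. The SA arrays of the 2 genotypes did not overlap for PUB23. WRKY53 was at 35.6, 35.5 and 34.4 in water and 172, 200 and 168 after SA in the double. WRKY53 in the brca2a triple was between 21.0 and 30.2 on all 6 arrays. GRX480, whose product is a glutaredoxin induced by SA, was at 33.3, 33.4 and 46.3 in the double in water and 253, 268 and 316 after SA. The brca2a triple had GRX480 at 75.5, 41.1 and 69.9 in water and 61.5, 62.9 and 76.2 after SA.

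Of the genes with other roles, XTH18 was at 70.0, 42.2 and 74.5 in the double in water and 402, 382 and 400 after SA, and it lay between 50.6 and 81.5 on the 6 brca2a arrays. ORA47 was at 34.2, 29.5 and 37.1 in water and 140, 176 and 132 after SA, and between 25.7 and 50.6 on the brca2a arrays. For both genes no brca2a array reached the SA arrays of the double. OPCL1 was at 142, 120 and 127 in the double in water and 392, 298 and 336 after SA, against 186, 151 and 172 in the brca2a triple after SA. WRKY22 lay between 45.3 and 50.7 on the 3 water arrays of the double and was at 127, 116 and 115 after SA, against 59.5, 52.6 and 49.1 in the brca2a triple after SA. OPCL1 and WRKY22 lay near the lower end of the range of SA effects, at 1.29 and 1.07. RING1, one of the brighter members, was at 374, 442 and 339 in water and 865, 948 and 856 after SA in the double, and between 305 and 411 on all brca2a arrays. CHI was at 40.9, 74.4 and 38.5 in water and 107, 131 and 122 after SA in the double. In brca2a plants CHI was at 107, 63.6 and 99.6 in water and 42.4, 60.0 and 47.2 after SA. Its brca2a water array 1 thus matched the lowest SA array of the double, and water array 3 lay below that array.

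**Figure D1:**
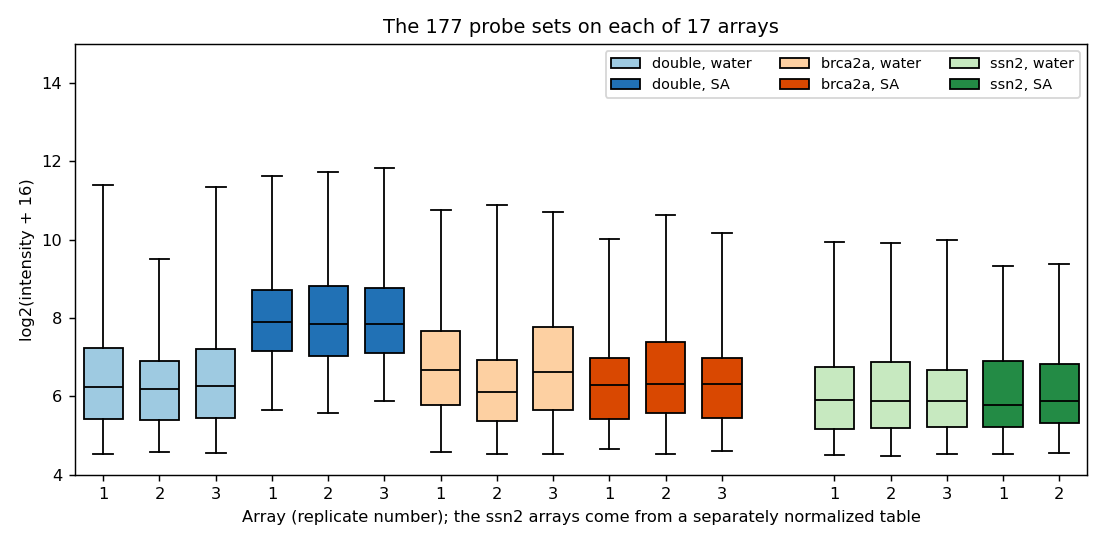
Each box gives the quartiles and median of the 177 members on 1 array, as log2(intensity + 16), with whiskers from the lowest to the highest member. Medians lie between 7.85 and 7.90 on the 3 SA arrays of the double and between 6.12 and 6.68 on the 6 arrays of the brca2a triple. The 5 ssn2 arrays stand apart on the right because their table was normalized separately.

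Over all members, array medians were 6.24, 6.18 and 6.26 in the double in water and 7.90, 7.85 and 7.85 after SA. In the brca2a triple they were 6.68, 6.12 and 6.62 in water and 6.28, 6.32 and 6.31 after SA. The median over all probe sets stayed between 6.21 and 6.28 on these 12 arrays. After SA the brca2a arrays lay below all SA arrays of the double for 164 of the 177 members, where 10.8% of all probe sets did so. The choice of the members used these arrays. The SA effect in the brca2a triple had a median of -0.12 over the members and ranged from -1.48 to 0.30. It was below 0 in 113 members and below -0.3 in 56. Every SA array lay below every water array there for 46 members and above for 13, where 16.9% and 13.4% of all probe sets did so. Nothing is read from these counts, since the rule used that contrast. The median difference of the brca2a triple from the double over the members was 0.11 in water and -1.41 after SA. The rule makes the difference after SA lower than that in water for every member, so nothing is read from this contrast either. In water the brca2a triple was at least 0.3 higher than the double for 43 members and at least 0.3 lower for 6. The rule used both water groups, and it favours members that are low in the double and high in the brca2a triple in water. The share of all probe sets is not given here, so nothing is read from these counts.

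In the double, 1 array stood apart. Its water array 2 correlated with water arrays 1 and 3 at 0.981 and 0.980 across probe sets, against 0.997 between those 2. The 3 SA arrays of the double correlated at 0.997 to 0.998. Water array 2 was at least 1 log2 unit below both others for 16 members and at least 1 above both for 3. AT2G27080, for example, was at 289, 82.8 and 357 in water and 771, 915 and 735 after SA in the double. When members were chosen without water array 2 there were 161, of which 147 were among the 177. The 30 that left had SA effects of 0.29 to 0.99 in the double without that array. They included TET8 (1.12 with the array and 0.85 without), PUB19 (1.06 and 0.78), AT4G34150 (1.12 and 0.70), AT4G24380 (1.09 and 0.65), AT1G72900 (1.15 and 0.69) and LEA4-5 (1.02 and 0.96).

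In the brca2a triple, water array 2 was the lowest of the 3 water arrays for 137 of the 177 members. It lay at least 1 unit below both other water arrays for 16. SA array 2 lay at least 1 unit above both other SA arrays for 13, and 12 members met both conditions. Among all 22746 probe sets only 25 met both. The 12 held 5 named genes, LTI30, LEA4-5, AT3G02480, AT1G05340 and AT4G39670, and 7 unlisted probe sets. They were picked out after their values were seen.

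LTI30 was at 386, 19.2 and 339 in brca2a water arrays 1, 2 and 3 and at 30.8, 892 and 28.1 in SA arrays 1, 2 and 3. SA minus water was therefore -3.11, 4.69 and -3.01 (log2) for numbers 1, 2 and 3, and the mean of -0.48 describes none of them. In the double LTI30 was at 20.7, 26.3 and 22.3 in water and 222, 226 and 213 after SA. AT3G02480 was at 456, 29.7 and 368 in brca2a water and 17.2, 1040 and 19.2 after SA. LEA4-5 was at 228, 29.5 and 205 in water and 29.0, 211 and 30.3 after SA. For these 12 members a lost SA effect in the brca2a triple is a mean over arrays that moved in opposite directions. Whether these 2 arrays carry the right treatment label, or plants or handling differed, was not tested for these genes. In the 38 kept probe sets SA minus water was above 0 for every one at numbers 1, 2 and 3 of the brca2a triple, with medians of 1.18 to 1.2 for the 3 numbers. It was at least 1 for 33, 32 and 33 of the 38 at numbers 1, 2 and 3. A mean of at least 1 over all 3 numbers chose these probe sets, which favours a rise at each number without fixing it. The labels were not tested with these values, and nothing is read from them about the labels. The number of members was 190 without brca2a water array 2, and it was 190 with both brca2a arrays numbered 2 left out, of which 176 were among the 177.

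**Figure D2:**
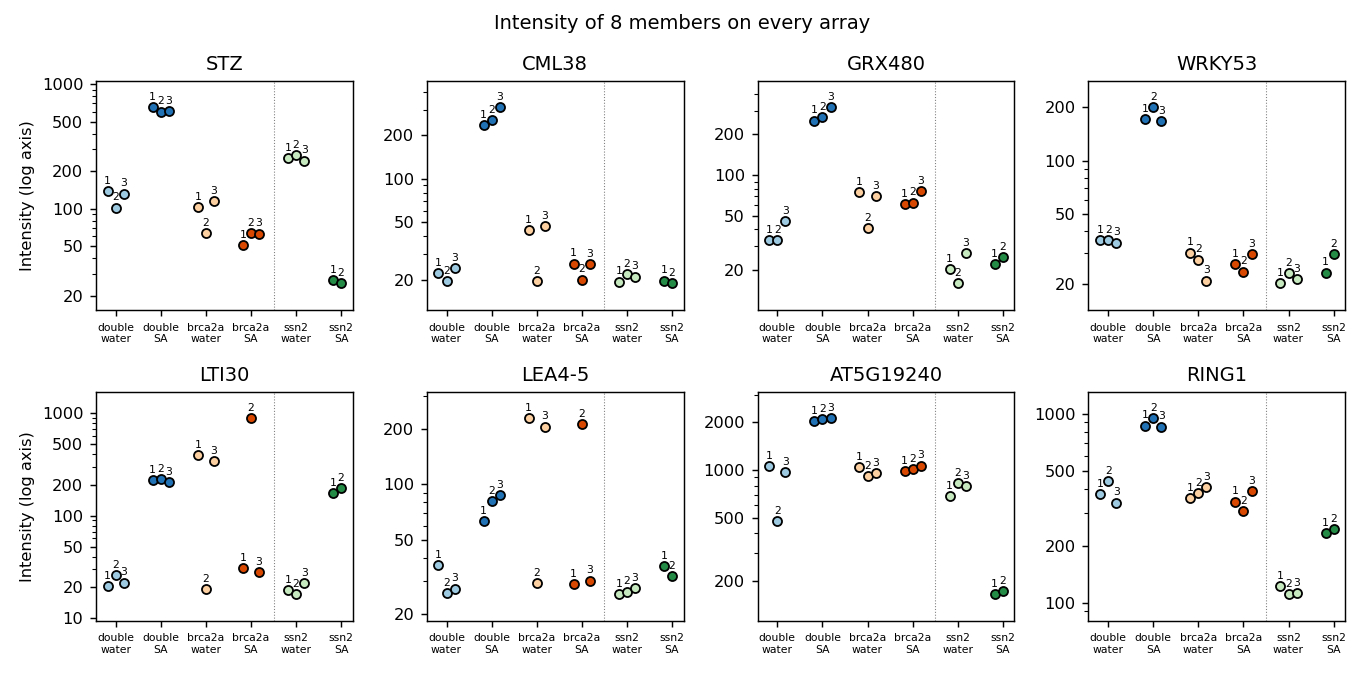
Intensity (log axis) of 8 members on every array, with the replicate number above each point. STZ, CML38, GRX480 and WRKY53 are high on the 3 SA arrays of the double and low on the 6 brca2a arrays, while LTI30 and LEA4-5 are high on brca2a water arrays 1 and 3 and on SA array 2. To the right of the dotted line are the separately normalized ssn2 arrays, where STZ and AT5G19240 are lower and LTI30 and RING1 higher after SA.

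The arrays of each number in turn were left out and the rule was applied to the other 2 of each group. The left-out arrays took no part in that round, but they came from the same table and had helped to choose the members. The rule then chose 168, 180 and 178 probe sets (numbers 1, 2 and 3 left out), of which 147, 149 and 151 were members. The median SA effect in the left-out arrays of the double was 1.27, 1.47 and 1.28, against 1.42, 1.39 and 1.40 in the arrays that chose. In the left-out brca2a arrays it was -0.20, 0.13 and -0.22. The left-out brca2a effect was under 0.3 for 95.2%, 61.7% and 93.8% of the chosen probe sets, and at least 1 for 0, 22 and 0. Over all probe sets 91.6%, 91.7% and 92.2% were under 0.3 in those arrays, so that this share alone says little. An SA effect of at least 1 in the double together with one under 0.3 in the brca2a triple was seen in the left-out arrays for 116 of 168, 89 of 180 and 115 of 178. The share of all probe sets meeting both conditions there is not given, so nothing is read from these joint counts. The left-out values describe repeat arrays of the same groups and were not tested.

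In the ssn2 triple, SA moved the members in both directions. Of the 177, 52 rose, 55 fell and 70 did not pass (limma, adjusted p threshold 0.05, 3 water arrays against 2 SA arrays). Over all 22746 probe sets 33.2% passed, 18.8% upward and 14.5% downward, against 29.4% and 31.1% of the members. The median SA effect of the members was -0.00044, with quartiles of -0.40 and 0.37 and a range from -2.70 to 3.77, against a median of 0.0016 over all probe sets. At least 2-fold rises were called for 14 members and falls for 15 (7.91% and 8.47%, against 2.18% and 2.33% of all probe sets). SA and water arrays did not overlap for 66 members in the higher and 69 in the lower direction (37.3% and 39.0%, against 27.9% and 25.2% of all probe sets). No test of the list was made, and the members' counts are read beside those shares only. Of the 52 and 55 calls, 33 and 44 also passed under each alternative in which the probe set was tested. Without ssn2 SA replicate 2 the counts were 35 and 51.

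Among the members chosen without water array 2 of the double, 49 rose and 39 fell. Of the 30 members that left, 17 had fallen in the ssn2 triple and 7 had risen. Without the 12 members that met both conditions on the brca2a arrays numbered 2, 41 of 165 rose and 55 fell. Of those 12, 11 rose in the ssn2 triple and none fell, with a median of 1.05, and they supplied 6 of the 14 rises of at least 2-fold. Over all probe sets 18.8% rose and 14.5% fell. The 30 and the 12 were set apart by arrays that the rule used, and their difference from the other members was not tested.

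The probe sets that kept an SA effect in the brca2a triple were called upward more often in the ssn2 triple. Of the 104 partly kept, 76 rose and 4 fell (73.1% and 3.85%, median 0.55). Of the 38 kept, 34 rose and 2 fell (89.5% and 5.26%, median 1.0). The difference between these groups and the members was not tested. Within the members the same order was seen. Of 56 with a brca2a SA effect under -0.3, 12 rose (21.4%) and 31 fell (55.4%) in the ssn2 triple. Of 57 with an effect from -0.3 to under 0, 18 rose (31.6%) and 13 fell (22.8%). Of 64 with 0 to under 0.3, 22 rose (34.4%) and 11 fell (17.2%). Over all probe sets 18.8% rose and 14.5% fell. LTI30, LEA4-5, AT3G02480 and AT1G05340 were among the rises under -0.3, although their brca2a arrays moved in opposite directions. Among the falls there, AT4G34150 and the unlisted 247925_at were members only with water array 2 of the double. The order and the correlations were not recomputed without such members. Across the 177 members the brca2a and ssn2 effects, which share no array, had Pearson r = 0.26 and Spearman rho = 0.33, over a brca2a range that the rule truncates. Over all 319 raised in the double r was 0.53 and rho 0.57, and over all probe sets 0.47 and 0.45. The size of the SA effect in the double had r = 0.07 and rho = 0.01 with the ssn2 effect over the members. Genes are not independent replicates in these values.

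**Figure D3:**
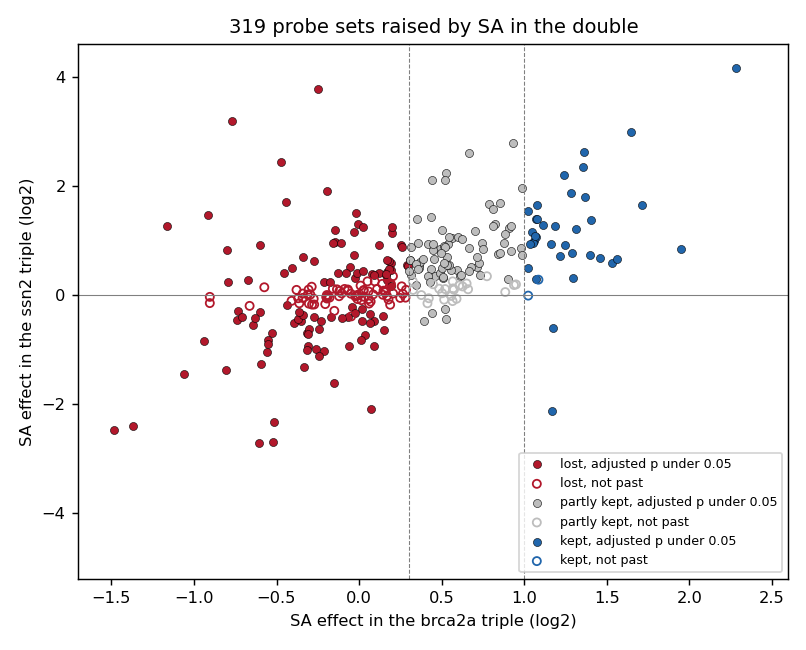
SA effect in the brca2a triple (x axis, log2) against that in the ssn2 triple (y axis, log2) for the 319 probe sets raised by SA in the double. Dashed lines mark 0.3 and 1, filled points passed limma's adjusted p of 0.05 in the ssn2 triple, and the 177 members to the left spread from -2.70 to 3.77 on the y axis.

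**Figure D4:**
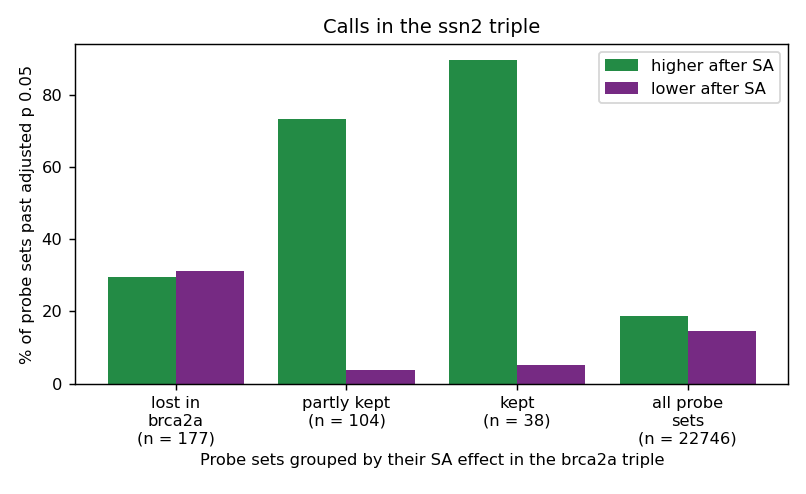
Share of probe sets (percent) called higher or lower after SA in the ssn2 triple, for the 177 members, the 104 partly kept, the 38 kept and all 22746 probe sets. The members were called higher in 29.4% and lower in 31.1%, and the kept probe sets in 89.5% and 5.26%.

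Among named members, STZ had the largest fall in the ssn2 triple. Its intensity was 255, 270 and 243 in ssn2 water arrays and 26.6 and 25.1 after SA, a fall of 6.49-fold (log2 fold change -2.70 ± 0.06, standard error, adjusted p = 3.4e-06). Water and SA arrays did not overlap, and the direction was opposite to that in the double. AT5G19240 was at 689, 829 and 789 in water and 165 and 172 after SA (-2.08 ± 0.08, adjusted p = 2.3e-05). AT1G20823 was at 219, 207 and 239 in water and 68.5 and 56.2 after SA (-1.60 ± 0.09, adjusted p = 7.5e-05). For both genes the SA arrays lay well below the water arrays.

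Of the ubiquitin ligase genes, PUB19 fell from 122, 107 and 85.9 to 35.1 and 32.9 (-1.26 ± 0.13, adjusted p = 0.00065). PUB23 fell from 56.6, 61.0 and 51.9 to 39.0 and 41.8 (-0.36 ± 0.07, adjusted p = 0.0084), a call that ended without ssn2 SA replicate 1 (0.059). AT4G34150, placed on the calmodulin-like and calmodulin-binding list although its name gives it no class, had -1.31 ± 0.07 (adjusted p = 5.4e-05). The tetraspanin gene TET8 went from 887, 930 and 948 to 565 and 460 (-0.83 ± 0.09, adjusted p = 0.00097). AT4G29780, among the largest in the double, had -1.04 ± 0.07 (adjusted p = 0.00018), going from 69.9, 66.0 and 78.6 to 25.2 and 27.6. AT1G66090, AT5G17350, AT4G24380 and AT2G27080 fell by 1.02, 0.93, 0.90 and 0.47 on the log2 scale. Among these, TET8, PUB19, AT4G34150 and AT4G24380 were members only with water array 2 of the double included. In the unlisted probe set 247925_at intensity went from 965, 956 and 1000 to 133 and 140 in the ssn2 triple (-2.70 ± 0.05). It too was a member only with water array 2 of the double, with an SA effect there of 1.30 with that array and 0.36 without.

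Members that rose in the ssn2 triple were led by the dehydrin gene LTI30 among named genes. It was at 18.7, 17.2 and 22.1 in water and 165 and 185 after SA, a 5.41-fold rise (2.43 ± 0.08, adjusted p = 1.1e-05). AT5G35735 rose from 54.3, 51.4 and 47.1 to 248 and 223 (1.91 ± 0.07, adjusted p = 1.8e-05). AT3G27210 rose from 17.6, 18.5 and 16.5 to 78.7 and 80.3 (1.51 ± 0.05, adjusted p = 1.2e-05). In each of these 3 genes the water and SA arrays were clearly separate. AT3G02480 rose by 1.46 ± 0.10 (adjusted p = 0.00017). LTI30 and AT3G02480 belong to the 12 members that met both conditions on the brca2a arrays numbered 2.

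The ubiquitin ligase gene RING1 rose from 122, 111 and 112 to 234 and 246 (0.97 ± 0.06, adjusted p = 0.00011), opposite to PUB19 and PUB23. AT3G47480, of the calmodulin-like list, rose from 19.1, 17.5 and 16.9 to 44.7 and 51.0 (0.92 ± 0.06, adjusted p = 0.00016). AT1G72900, AT5G52050 (DTX50, a detoxification efflux carrier), AT3G55430 and AT2G44500 rose by 0.92, 0.62, 0.62 and 0.53. AT5G52760, with the largest SA effect of the named members in the double, rose by 0.46 ± 0.08 (adjusted p = 0.0062), from 24.4, 28.8 and 23.1 to 38.0 and 43.5. AT1G05340 rose by 0.50 ± 0.10 (adjusted p = 0.0096). These last 2 calls ended without ssn2 SA replicate 2 (adjusted p = 0.051 and 0.064). The chitinase gene CHI and LEA4-5 rose by 0.27 and 0.24 (adjusted p = 0.035 and 0.025). The call of CHI ended under 6 alternatives and that of LEA4-5 under 4, with adjusted p up to 0.18 and 0.098. The unlisted probe set 247717_at, the highest of all members, rose from 17.1, 19.0 and 21.2 to 426 and 499 (3.77 ± 0.09). It is also one of the 12.

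Several of the genes most strongly raised in the double did not pass in the ssn2 triple. CML38 was at 19.5, 21.9 and 21.1 in water and 19.8 and 18.9 after SA (-0.06 ± 0.05, adjusted p = 0.50). AT3G01830 lay between 8.40 and 9.04 on all 5 arrays. GRX480 was at 20.5, 16.0 and 26.6 in water and 22.3 and 25.1 after SA (0.11 ± 0.12, adjusted p = 0.59). For all 3 genes the water and SA arrays overlapped. XTH18 (0.05 ± 0.14, adjusted p = 0.85), AT4G27654 (0.01 ± 0.07, 0.96) and AT3G02840 (0.11 ± 0.05, 0.14) did not pass either. WRKY53 had 0.17 ± 0.08 (adjusted p = 0.16, and 0.043 without ssn2 SA replicate 1) and WRKY22 -0.08 ± 0.06 (0.37). The jasmonate genes ORA47 and OPCL1 had -0.11 ± 0.07 and 0.25 ± 0.08 (adjusted p = 0.31 and 0.063), and AR781 had 0.03 ± 0.05 (0.77). AT5G39670 had -0.39 ± 0.12 (adjusted p = 0.054, and 0.0091 to 0.24 across alternatives).

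Most members were dim in the ssn2 table, although OPCL1 and AR781 lay above its median level. Of the 177 members, 109 lay at or below its median level of 6.24, and 53 of these (48.6%) passed, against 13.3% of all probe sets at or below it. Of the 68 members above the median, 54 (79.4%) passed, 23 upward and 31 downward, against 53.1% of all probe sets above it. The added 16 units compress log2 differences of dim probe sets, and an uncalled value there does not show that the gene was unaffected.

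**Figure D5:**
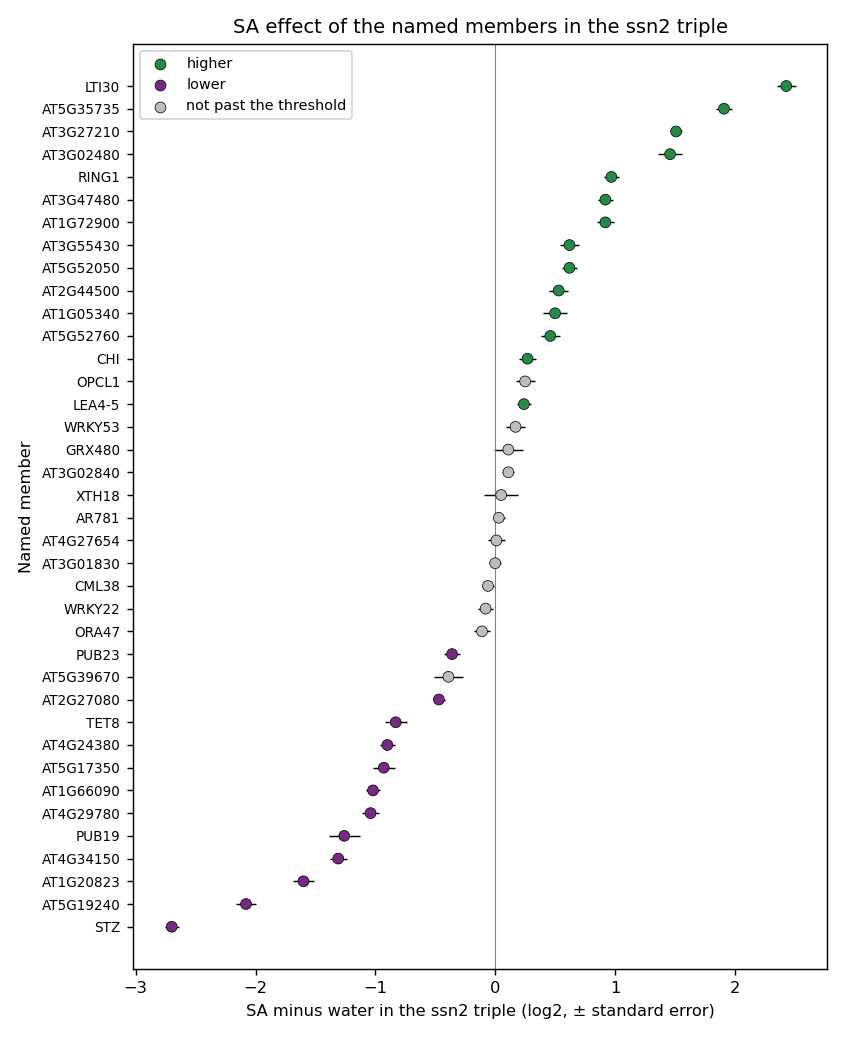
SA minus water in the ssn2 triple (log2, points with standard errors of limma's fit, 3 water and 2 SA arrays) for 38 named members. Values run from -2.70 for STZ to 2.43 for LTI30, with 12 called lower, 14 called higher and 12 not past the threshold. Some members were named for such a call, so these counts are not shares of all members.

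Most listed genes of related function could not be named through the platform table used here. Of 136 genes in 9 lists of immune and stress genes, 24 had a probe set of 1 gene and 10 were members. The members were WRKY53 and WRKY22 (of 3 measured WRKY genes), STZ (of 2 zinc finger genes), PUB23 (of 4 ubiquitin ligase genes), XTH18 (of 2) and GRX480 (of 2 SA genes). CML38, AT3G01830, AT3G47480 and AT4G34150 were members among 9 measured genes of the list named calmodulin-like and calmodulin-binding. Of these, only CML38 was classed as calcium binding or calmodulin by its symbol, and what the others encode was not checked. The 14 measured genes that were not members included 4 that rose and 3 that fell in the ssn2 triple. Chosen after the values were seen as the genes with the largest rise and fall, CML41 and CML23 showed the range. CML41 rose by 1.80 ± 0.07 (adjusted p = 1.7e-05) and had SA effects of 0.48 and -0.98 in the double and the brca2a triple. CML23 fell, with -1.67 ± 0.08 (adjusted p = 3.7e-05), and had 0.05 and -0.29 there. PUB22, the closest relative of PUB23, had 0.60, -0.15 and -0.22 in the double, the brca2a triple and the ssn2 triple (adjusted p = 0.13 in the last).

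The thresholds cut through a continuous range. Just inside the brca2a limit were AT2G44500 and AT5G42830, with brca2a SA effects of 0.299 and 0.249, and just outside it AT1G13750 and AT1G70740, with 0.315 and 0.325. Just inside the minimum in the double were AT1G56660 and AT2G36220 with 1.0 and 1.005, and just outside it AT1G24140 and AT5G12340 with 0.991 and 0.988.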

How the data were processed

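Per the submitters' processing notes the authors used PLIER. The version of PLIER is not given in the sources used here. The authors deposited linear probe set intensity values in 2 tables (12 and 5 arrays), which lay between 3.92 and 14773 with array medians of 57.2 to 61.9. A further deposited table is on the log2 scale. On the ssn2 arrays each probe set there differs from its log2 intensity by 1 fixed amount, to within 1.35e-06, so that SA effects are the same. It served as an alternative. The arrays' number limits the precision. Per the labels, replicates came from independent experiments.

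Of 22810 probe sets, 64 controls were left out. Values were transformed as log2(intensity + 16), without a filter on dim probe sets. SA against water in the ssn2 triple was fitted to all 22746 probe sets with limma 3.58.1 (lmFit, eBayes) in R 4.3.3. Tests were two-sided with Benjamini-Hochberg adjustment over all probe sets, threshold 0.05, and the script was tested on simulated data. Fold changes are on the log2(intensity + 16) scale and understate those of dim genes. Of the probe sets, 13513 had 1 gene in the platform table, 503 several and 8730 were unlisted. Symbols come from RefSeq.

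Members and lists were chosen with earlier results of these data known. Named were the 15 one-gene members with the largest effect in the double, up to 10 called per direction in the ssn2 triple, members on lists, those nearest each threshold and, added after values were seen, members with a symbol. Promoter motifs were not analysed here. The alternatives were pseudocounts of 0 and 64, median centring, quantile normalization, probe sets above the median level alone, the log2 table, a variance trend, the replicate number as a block, leaving out each array, and brca2a limits of 0.2 and 0.5.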

Additional observations from a re-analysis of the deposited data

Results flagged for a closer look

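In 12 named members the SA arrays of the double lay above all its water arrays, which was a condition of their choice, and both SA arrays of the ssn2 triple lay below its 3 water arrays, where the fall passed limma's threshold. Their log2 SA effects in the ssn2 triple were -2.70 for STZ, -2.08 for AT5G19240, -1.60 for AT1G20823, -1.31 for AT4G34150, -1.26 for PUB19, -1.04 for AT4G29780, -1.02 for AT1G66090, -0.93 for AT5G17350, -0.90 for AT4G24380, -0.83 for TET8, -0.47 for AT2G27080 and -0.36 for PUB23. The difference between the double and the ssn2 triple was not tested, as they come from separately normalized tables. A called fall in the ssn2 triple was itself a reason for naming members. The number 12 was thus partly set by the naming, and nothing is read from it. Of all 71 members with 1 gene, named here or not, 22 (31.0%) were called lower in the ssn2 triple. Over all probe sets, 14.5% were called lower there, and 25.2% had every SA array below every water array. No group had the 4 arrays needed to flag a single outlying array by a rule. Water array 2 of the double stood apart by its correlations, and TET8, PUB19, AT4G34150 and AT4G24380 were members only with it included.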

How the results depend on the processing

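The rule gave 114 members with a pseudocount of 64, of which 104 were among the 177. It gave 164 to 227 under the other settings and 161 to 195 with 1 array left out. In the ssn2 triple, 7558 probe sets passed and 6542 to 7721 under other settings. With 1 array left out this was 5899 to 7091, and the members called were 86 to 104 (35 to 50 higher, 45 to 54 lower), with medians of -0.019 to 0.036. Only the fit to probe sets above the median level moved the members' counts by over 1.5 times. It held 68 members, 56 called, 24 higher and 32 lower, with a median of -0.17. In the main fit the same 68 members also had a median of -0.17, with 23 called higher and 31 lower. With the replicate block, 103 members were called, 51 higher and 52 lower. Replicate numbers pair 2 water with 2 SA arrays, and the deviations of same-numbered arrays correlated at -0.10 and -0.01. Of 470 values of 38 named members under alternatives, 13 lost and 8 gained a call, and 12 changed sign with neither value called. Where 1 SA array remained, it was assumed to vary like the water arrays. Promoter motifs were not run. Members were also chosen, after the data were seen, without both brca2a arrays numbered 2, which left 62 higher and 55 lower.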
